A study of Homo sapiens with 12 samples.

Results

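The genes of AMP-activated protein kinase (AMPK) and of the kinases that act on it were followed through WT and AMPK KO HEK293 cells. Of the 26058 genes listed in the deposited table, 9 were chosen by name through their Ensembl identifiers: the catalytic subunit genes PRKAA1 and PRKAA2, the β subunit genes PRKAB1 and PRKAB2, the γ subunit genes PRKAG1 and PRKAG2, and STK11, CAB39 and CAMKK2, which encode upstream kinases or a partner of one. All 9 had a row, and all 9 passed the filter on low values. The rule used no measured value.

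AMPK is an energy sensor made of a catalytic α subunit bound to a regulatory β and γ subunit. The β subunit is the scaffold of the complex and binds glycogen, and the γ subunit binds AMP, ADP and ATP. The kinase becomes active when the activation loop of the α subunit is phosphorylated, either by LKB1 (STK11) in complex with a STRAD pseudokinase and MO25 (CAB39), or by the calcium-dependent kinase CAMKK2. Active AMPK switches off the synthesis of fat and cholesterol and the mTOR growth pathway, and switches on autophagy and mitochondrial fission.

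HEK293 is an established human embryonic kidney cell line. The AMPK KO derivative had lost both catalytic subunit genes by CRISPR, and the WT derivative had not; the study received both from another laboratory. The target sites, and whether the knockout cells came from a single clone, were not given in the sources used here. All cells were starved of serum for 24 h. Each line was then given only the solvent (the DMSO groups), the solvent for 20 min and then EGF, the epidermal growth factor, for another 30 min (DMSO+EGF), or 25 µM cordycepin for 20 min and then EGF for 30 min (cordycepin+EGF, 50 min in all). Cordycepin is 3′-deoxyadenosine, an adenosine analogue and a terminator of polyadenylation. EGF was used at 15 in units that the labels and the study's methods give differently (nM or µM), and the time in DMSO alone is also given differently (20 or 50 min). The 6 groups had 2 libraries each, numbered 2 and 3, so that 12 libraries of total RNA, depleted of ribosomal RNA, were compared. The study used these lines to ask whether AMPK is needed for the effect of cordycepin on the EGF response. Here the question was whether the other subunits or the upstream kinases shift when the catalytic genes are knocked out. With a single line of each genotype, an effect of the knockout cannot be told apart from any other difference between the lines.

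Levels are given as scaled RPKM, that is, the deposited RPKM (read numbers divided by exon length and library size) multiplied so that the upper quartile was equal in every library. Read numbers could be recovered from the RPKM values. The shallowest library, WT DMSO replicate 3, had 4010505 reads, the deepest had 26459217 (replicate 2 of WT cordycepin+EGF), and the other 10 lay between 12682401 and 25048708. That shallow library stood apart: 1170 listed genes had no read in it, against 3 to 127 in the other libraries. Pearson's r of the log2 levels between the WT DMSO replicates, over the genes tested, was 0.918, against 0.961 to 0.977 in the other groups. Each of the 9 genes had 30 to 2889 reads in a library. Of 7 genes set as marks of HEK293 cells, NEFL, LIN28B, VIM, KRT8 and KRT18 were expressed in every library, NEFM and PAX2 had a mean RPKM under 0.5, and none of the 5 tested passed between AMPK KO and WT; the smallest p-values were those of LIN28B in DMSO (log2 fold change -0.50, limma, adjusted p = 0.132) and KRT8 in cordycepin+EGF (-0.37, adjusted p = 0.325). Of 7 markers of blood, liver, endothelial and fibroblast cells, 5 (CD3E, ALB, PECAM1, CDH5 and DCN) had no row, PTPRC had a scaled RPKM of 0 to 0.0607, and COL1A1, a collagen gene of fibroblasts, of 0.352 to 1.20. COL1A1 was lower in AMPK KO cells in DMSO+EGF (log2 fold change -0.92, SE 0.188, limma, adjusted p = 0.0499; called in 8 of 23 alternatives), and its part in the results was not tested.

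The subunits come in pairs of related genes, and the sequences show how far a read can tell the members of a pair apart. The most alike 60 bases of coding sequence that lie within a single exon of each member are printed for each pair, from the GENCODE release 44 transcripts (GRCh38) and in the sense of the gene, with the bases that differ in capitals. For the catalytic pair the stretch is in exon 1 of both genes, at chr5:40798091-40798150 on the minus strand for PRKAA1 and at chr1:56645394-56645453 on the plus strand for PRKAA2, and 5 of 60 bases differ.
PRKAA1: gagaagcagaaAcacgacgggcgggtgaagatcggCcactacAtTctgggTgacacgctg
PRKAA2: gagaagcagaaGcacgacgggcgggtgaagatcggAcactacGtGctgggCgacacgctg
For the β pair the stretch is in exon 3 of PRKAB1 (chr12:119673972-119674031, plus strand) and exon 4 of PRKAB2 (chr1:147166872-147166931, minus strand), and 7 bases differ.
PRKAB1: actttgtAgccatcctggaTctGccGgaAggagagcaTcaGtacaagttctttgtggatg
PRKAB2: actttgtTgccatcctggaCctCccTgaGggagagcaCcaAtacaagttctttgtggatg
For the γ pair the stretch is in exon 4 of PRKAG1 (chr12:49005469-49005528, minus strand) and exon 7 of PRKAG2 (chr7:151576378-151576437, minus strand), and 12 bases differ.
PRKAG1: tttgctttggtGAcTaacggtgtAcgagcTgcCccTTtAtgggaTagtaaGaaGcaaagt
PRKAG2: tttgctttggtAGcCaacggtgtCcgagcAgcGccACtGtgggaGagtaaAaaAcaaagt
Over all annotated transcripts, the longest run of bases that both members share was 24 bases for the catalytic pair, 20 for the β pair and 31 for the γ pair. These runs are shorter than the sequenced reads, so a full-length read that matches perfectly could not belong to both members of a pair.

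Both targeted genes were still transcribed in AMPK KO cells, PRKAA1 at 0.515 of its WT level (1.94-fold lower) and PRKAA2 with a smaller difference that missed the threshold. PRKAA1, which encodes α1, the catalytic subunit found in most tissues, lies on chromosome 5 (40759389 to 40798374, minus strand). In WT cells its scaled RPKM was 22.0 and 15.4 in DMSO, 17.2 and 18.5 in DMSO+EGF, and 11.6 and 11.2 in cordycepin+EGF (replicates 2 and 3). The AMPK KO libraries had 7.59 and 7.20, 8.44 and 7.45, and 7.26 and 8.68 in the same order. Every AMPK KO library was below every WT library, the 3 AMPK KO groups overlapped one another, and in WT cells the cordycepin+EGF libraries lay below the other 4. Over the mean of the 3 treatments PRKAA1 was lower in AMPK KO cells by 0.96 on the log2 scale (SE 0.097, 95% CI of the log2 fold change -1.18 to -0.74, limma, adjusted p = 0.00201, n = 6 libraries a line, lower in 6 of 6). It ranked 43 of 22067 genes by p. In total RNA from a culture, fewer cells with a transcript and less transcript per cell cannot be told apart, and reads over a whole gene do not show whether protein is made from them.

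PRKAA2, which encodes α2, the catalytic subunit abundant in muscle and heart, lies on chromosome 1 (56645314 to 56715335, plus strand). Its scaled RPKM in WT cells was 12.2 and 7.94 in DMSO, 9.87 and 11.1 in DMSO+EGF, and 6.95 and 7.31 in cordycepin+EGF. The AMPK KO libraries had 5.56 and 5.94, 6.91 and 6.68, and 5.56 and 7.59. The lines were separate in DMSO and in DMSO+EGF and overlapped in cordycepin+EGF. The log2 fold change over the mean of the 3 treatments was -0.48 (SE 0.116, adjusted p = 0.0547), which missed the threshold of 0.05. WT DMSO replicate 3 held the lowest PRKAA2 level of the 4 WT libraries without cordycepin. Without that library, which left 1 in its group, the log2 fold change was -0.58. Over 23 alternatives it ran from -0.58 to -0.38.

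**Figure D1:**
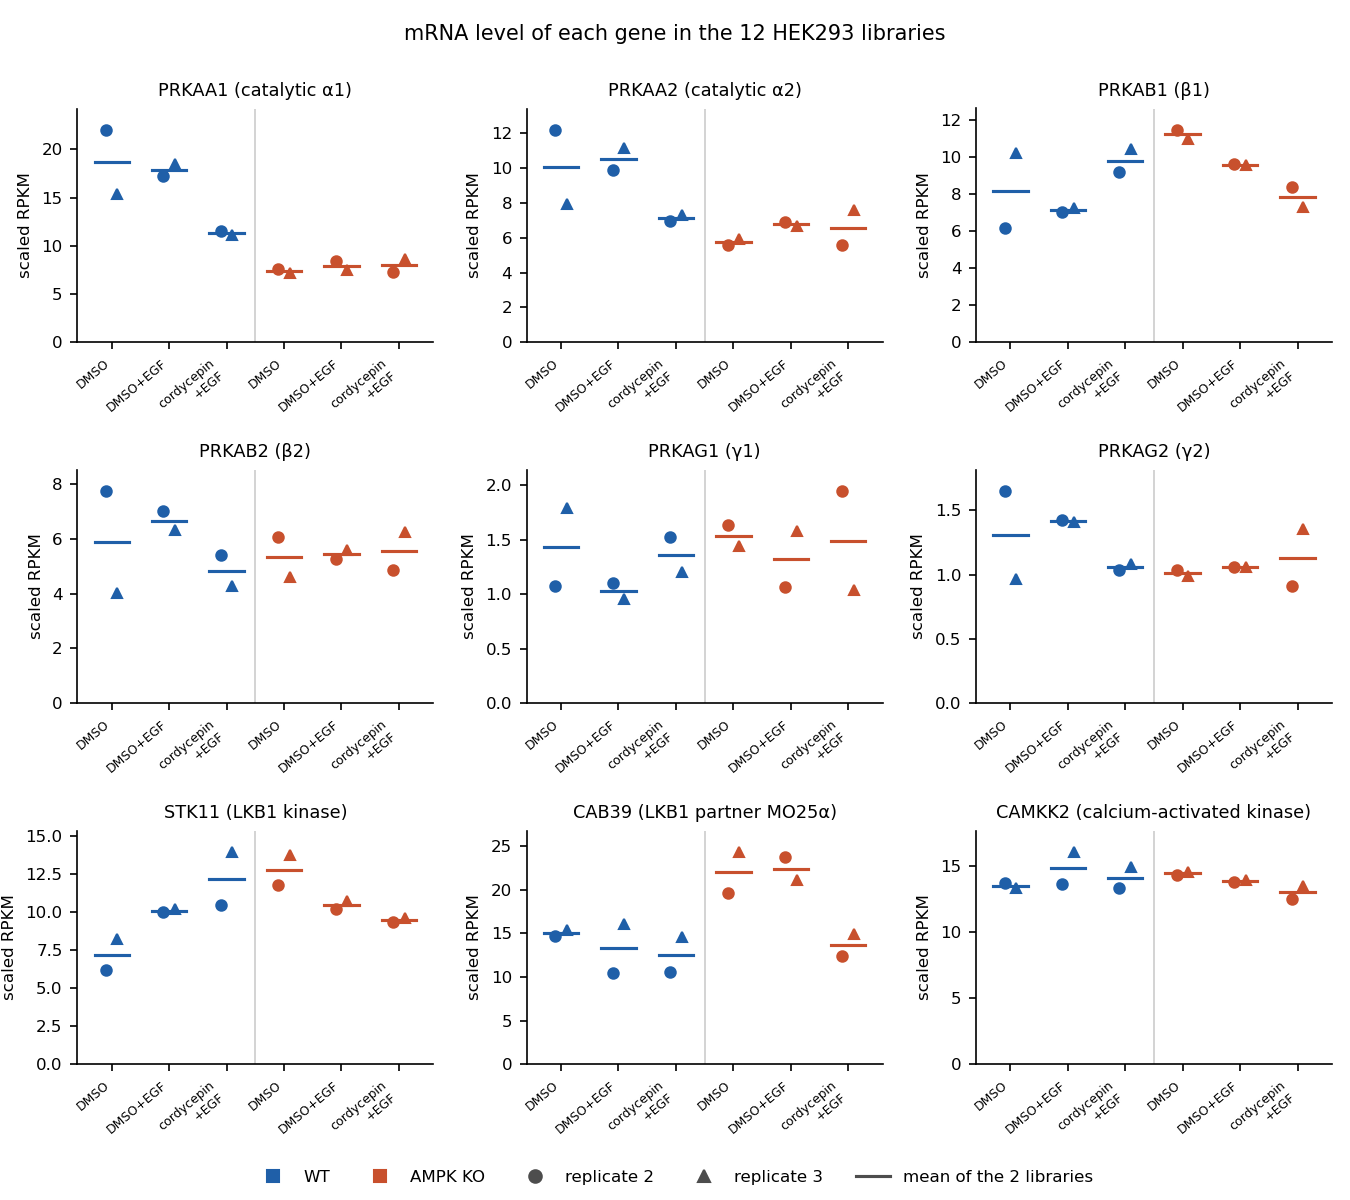
Level (scaled RPKM, linear axes from 0) of each of the 9 genes in the 12 libraries; circles are replicate 2, triangles replicate 3, bars the mean of the 2 libraries, blue WT and orange AMPK KO. The AMPK KO libraries of PRKAA1 sit between 7.20 and 8.68, below all WT libraries (11.2 to 22.0), while the lines overlap for the other 8 genes.

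By treatment, PRKAA1 was lower by 1.26 in DMSO (log2 fold change -1.26, SE 0.167, adjusted p = 0.0228) and by 1.12 in DMSO+EGF (log2 fold change -1.12, SE 0.167, adjusted p = 0.0236). In cordycepin+EGF PRKAA1 had a smaller difference, -0.49 on the same scale (SE 0.167, adjusted p = 0.28), where the WT level was itself lowest. PRKAA2 had log2 fold changes of -0.73 (adjusted p = 0.112), -0.59 (adjusted p = 0.134) and -0.12 (adjusted p = 0.804) in the same order. With only the 4 libraries compared in the fit, the PRKAA1 call held in DMSO+EGF (adjusted p = 0.0329) and was lost in DMSO (adjusted p = 0.416) at the same fold change. With the replicate numbers as a block within each line, the DMSO call was also lost (adjusted p = 0.0516, same fold change), and it held in 15 of 24 alternatives, against 18 of 24 for DMSO+EGF.

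The 9 genes can be read against all genes tested. With an adjusted p under 0.05, 1 of 9 genes (PRKAA1) was called over the mean of the 3 treatments, where 4.34% of 22067 genes were called (2.8% higher and 1.54% lower), and the same 1 of 9 in DMSO (background 0.44%, with 0.281% higher and 0.159% lower) and in DMSO+EGF (background 1.74%, with 0.929% higher and 0.807% lower). None was called in cordycepin+EGF (background 0.118%, with 0.0453% higher and 0.0725% lower). With an unadjusted p under 0.05 in limma there were 3 of 9 over the mean (background 20.4%), 5 of 9 in DMSO (background 21.3%), 3 of 9 in DMSO+EGF (background 22.5%) and 1 of 9 in cordycepin+EGF (background 13.7%). With the threshold the study used, an unadjusted p of at most 0.05 and a log2 fold change of at least 1 in size, PRKAA1 passed in DMSO (background 3.91%) and in DMSO+EGF (background 3.4%). No gene of the 9 passed that threshold over the mean (background 0.48%) or in cordycepin+EGF (background 1.55%), and none did for EGF in WT (1.54%) or AMPK KO (0.594%), for cordycepin in WT (2.61%) or AMPK KO (3.37%), or for the difference between the lines in the EGF effect (2.53%) or the cordycepin effect (8.01%). The levels of all 6 AMPK KO libraries were separate from all 6 WT libraries for PRKAA1 alone of the 9, and for 2.66% of all genes (1.65% higher and 1.01% lower). Within a treatment, separate pairs of libraries were common: 48.5% of all genes in DMSO, 62.9% in DMSO+EGF and 45.8% in cordycepin+EGF, against 6, 7 and 3 of the 9 genes.

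**Figure D2:**
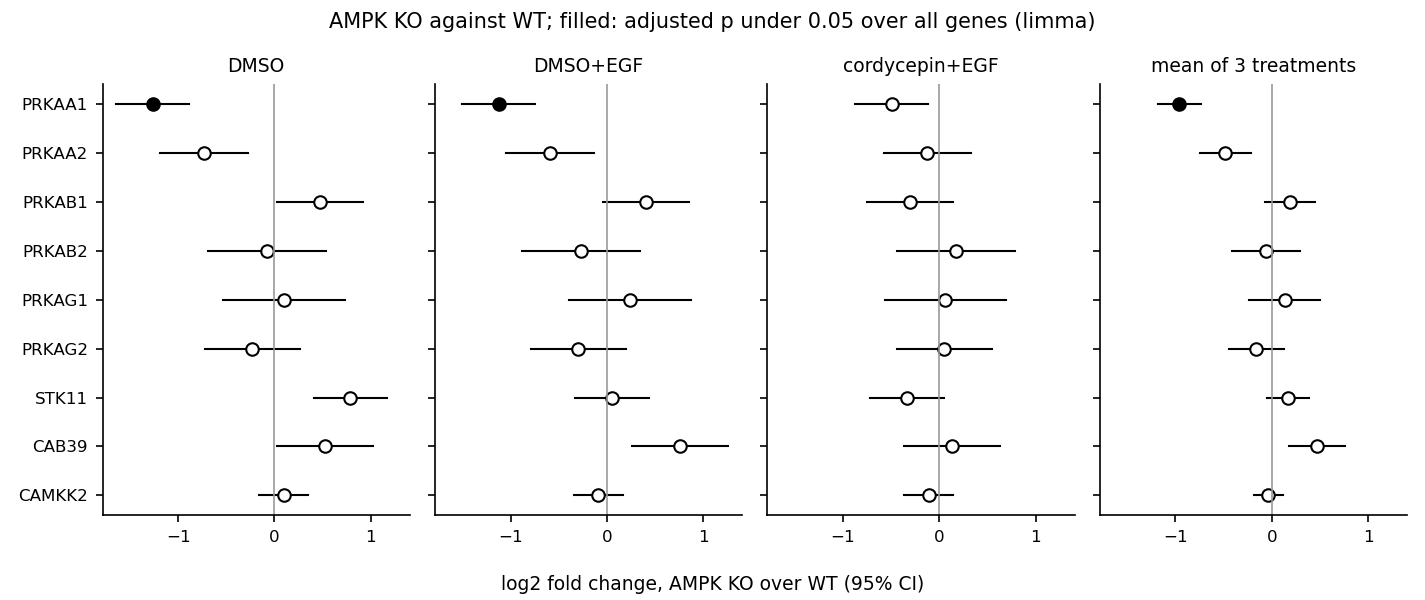
Log2 fold change of AMPK KO over WT with its 95% confidence interval, for each of the 9 genes in each treatment and over the mean of the 3; filled points have an adjusted p under 0.05 over all genes (limma). PRKAA1 is filled in DMSO (-1.26), DMSO+EGF (-1.12) and the mean (-0.96), and STK11 and PRKAB1 lie to the right of 0 in DMSO and to the left in cordycepin+EGF.

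The β subunit genes did not pass in any comparison of the lines in the main tests. PRKAB1 (chromosome 12, 119667864 to 119681624, plus strand), which encodes β1, had a scaled RPKM of 6.16 and 10.2 in WT DMSO, 7.0 and 7.24 in WT DMSO+EGF, and 9.16 and 10.4 in WT cordycepin+EGF. The AMPK KO levels were 11.5 and 11.0, 9.60 and 9.55, and 8.38 and 7.30. The AMPK KO libraries were the higher ones in DMSO and in DMSO+EGF and the lower ones in cordycepin+EGF, with no overlap in any treatment. The log2 fold change was 0.47 in DMSO (SE 0.198, adjusted p = 0.217), 0.40 in DMSO+EGF (adjusted p = 0.267), -0.30 in cordycepin+EGF (adjusted p = 0.507) and 0.19 over the mean (95% CI -0.07 to 0.45, adjusted p = 0.38). The WT DMSO pair spread widely (6.16 and 10.2), so the size of the difference in DMSO depended on which of the 2 was used. Without replicate 3, the higher of the pair, the log2 fold change was 0.81 in DMSO and 0.31 over the mean. That omission left 1 library in the group. Replicate 3, at 10.2, lay nearer to the AMPK KO levels of 11.5 and 11.0.

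PRKAB2 (chromosome 1, 147155106 to 147172550, minus strand), which encodes β2, the form abundant in muscle, had a scaled RPKM of 7.74 and 4.04 in WT DMSO, 7.01 and 6.30 in WT DMSO+EGF and 5.39 and 4.28 in WT cordycepin+EGF. AMPK KO libraries had 6.07 and 4.60, 5.25 and 5.59, and 4.84 and 6.23. The WT DMSO replicates held both its highest and its lowest level, and the log2 fold change over the mean of the treatments was -0.06 (95% CI -0.41 to 0.30).

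The γ subunit genes had the lowest levels of the 9 and did not pass in any comparison. PRKAG1 (chromosome 12, 49002274 to 49018807, minus strand), the γ1 gene, ran from 0.952 to 1.78 in WT libraries and from 1.04 to 1.95 in AMPK KO libraries (log2 fold change 0.13, 95% CI -0.23 to 0.50). Its level is uncertain, since 49.5% of its exon bases are shared on the same strand with a readthrough gene (ENSG00000288710, with 4 to 32 reads a library) and 12.3% with the antisense gene DDN-AS1. PRKAG2 (chromosome 7, 151556124 to 151877214, minus strand), the γ2 gene that is mutated in a familial heart muscle disease with glycogen storage, ran from 0.965 to 1.65 in WT and from 0.914 to 1.35 in AMPK KO libraries (log2 fold change -0.16, 95% CI -0.44 to 0.13). In DMSO+EGF the WT libraries (1.42 and 1.41) were both above the AMPK KO libraries (1.06 and 1.06), and the log2 fold change there was -0.30 (adjusted p = 0.461). The muscle gene PRKAG3 had no row in the table and was not analysed here.

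Summed over each pair, the catalytic level was lower in every AMPK KO library than in any WT library, while the β and γ sums overlapped between the lines. PRKAA1 and PRKAA2 together had a scaled RPKM of 25.2 ± 6.28 (SD, n = 6, 18.5 to 34.2) in WT and 14.1 ± 1.39 (SD, n = 6, 12.8 to 16.3) in AMPK KO libraries, with no overlap. The β sum was 14.2 ± 0.421 (SD, n = 6) in WT and 15.0 ± 1.55 (SD, n = 6) in AMPK KO, and the γ sum was 2.53 ± 0.189 and 2.52 ± 0.257. The γ sum includes PRKAG1, whose level is uncertain because of its shared exon bases. By treatment the β sum was separate between the lines and changed sides: the AMPK KO libraries were the higher ones in DMSO (17.5 and 15.6 against 13.9 and 14.2) and in DMSO+EGF (14.9 and 15.1 against 14.0 and 13.5), and the lower ones in cordycepin+EGF (13.2 and 13.5 against 14.5 and 14.7). PRKAB1 is part of the β sum and changed sides in the same way, so the sum is not a separate observation. Single genes were often separate within a treatment, from 45.8% of all genes in cordycepin+EGF to 62.9% in DMSO+EGF. The catalytic sum divided by the β sum was 1.79 (1.26 to 2.46) in WT and 0.956 (0.750 to 1.20) in AMPK KO libraries. PRKAA1 made up 63.2% of the catalytic sum in WT (60.5% to 65.9%) and 55.0% in AMPK KO cells (52.7% to 57.7%), again without overlap. In WT cells the catalytic sum was 28.8 in DMSO, 28.3 in DMSO+EGF and 18.5 in cordycepin+EGF, and in AMPK KO cells it was 13.1, 14.7 and 14.5. These sums and shares are descriptions with no test, and a sum of levels per length does not give amounts of protein.

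**Figure D3:**
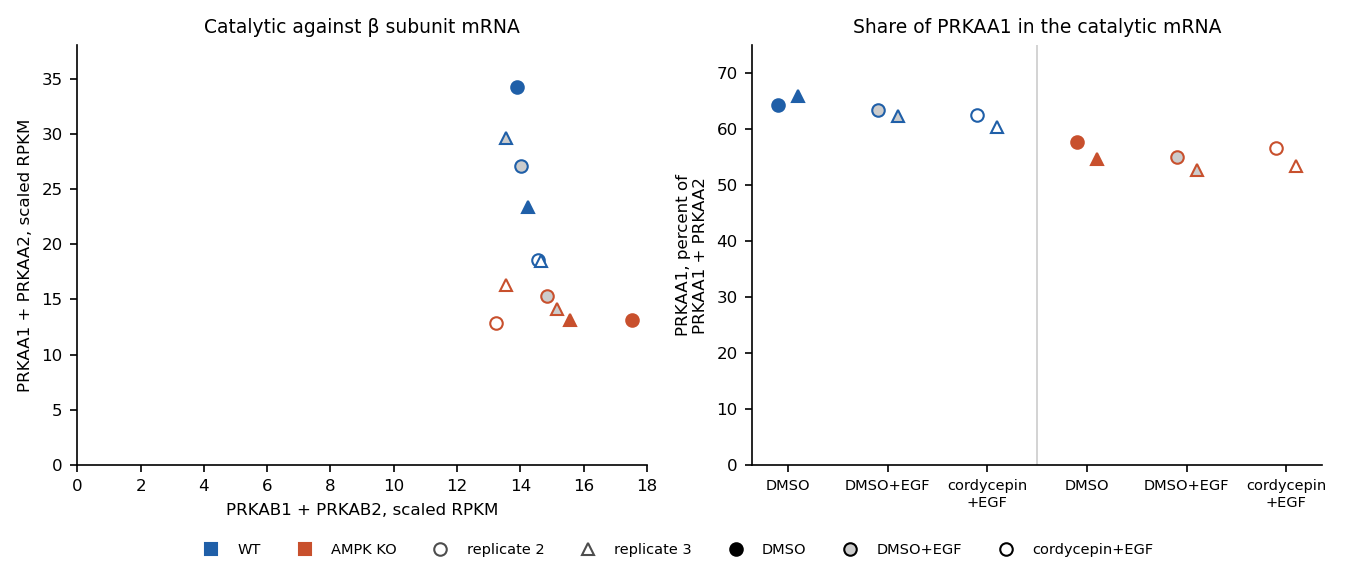
Left, the summed scaled RPKM of the catalytic genes against that of the β genes, 1 point a library; right, PRKAA1 as a percentage of the catalytic sum in each library. The WT libraries have catalytic sums of 18.5 to 34.2 and PRKAA1 shares of 60.5% to 65.9%, the AMPK KO libraries 12.8 to 16.3 and 52.7% to 57.7%, while the β sums overlap.

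Of the upstream genes, STK11 and CAB39 had their largest differences in single treatments, and neither passed after adjustment in the main tests. STK11 (chromosome 19, 1177558 to 1228431, plus strand) encodes LKB1, the tumour suppressor kinase mutated in Peutz-Jeghers syndrome. Its scaled RPKM was 6.19 and 8.24 in WT DMSO, 9.97 and 10.2 in WT DMSO+EGF, and 10.4 and 14.0 in WT cordycepin+EGF. AMPK KO libraries had 11.8 and 13.7, 10.2 and 10.7, and 9.33 and 9.62. WT DMSO held the lowest and AMPK KO DMSO nearly the highest levels, the lines were close in DMSO+EGF, and in cordycepin+EGF the WT libraries were the higher ones. The log2 fold change of AMPK KO over WT was 0.79 in DMSO (SE 0.169, adjusted p = 0.068), 0.05 in DMSO+EGF (adjusted p = 0.898), -0.33 in cordycepin+EGF (adjusted p = 0.408) and 0.17 over the mean (95% CI -0.05 to 0.39). Over 24 alternatives the log2 fold change in DMSO ran from 0.60 to 0.98. The largest value was that without WT DMSO replicate 3, which left 1 library in that group. With voom on recovered reads STK11 was called in DMSO (log2 fold change 0.92, adjusted p = 0.0149), as were 7.88% of all genes. The STK11 exons share 1.6% of their bases with CBARP on the opposite strand.

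CAB39 (chromosome 2, 230712842 to 230821075, plus strand) encodes MO25α, the scaffold that holds LKB1 in its active form. Its scaled RPKM was 14.7 and 15.4 in WT DMSO, 10.5 and 16.1 in WT DMSO+EGF and 10.6 and 14.5 in WT cordycepin+EGF. AMPK KO libraries had 19.6 and 24.3, 23.7 and 21.1, and 12.4 and 14.9. The 4 AMPK KO libraries without cordycepin were above every WT library, and the 2 with cordycepin fell among them. The log2 fold change was 0.52 in DMSO (SE 0.22, adjusted p = 0.219), 0.76 in DMSO+EGF (SE 0.22, adjusted p = 0.0963), 0.13 in cordycepin+EGF (adjusted p = 0.811) and 0.47 over the mean (95% CI 0.18 to 0.76, adjusted p = 0.0762), so that none passed. A processed pseudogene, CAB39P1, was listed with 0 to 25 reads a library and could share reads with it.

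CAMKK2 (chromosome 12, 121237675 to 121298308, minus strand), which phosphorylates AMPK when calcium rises, was the steadiest of the 9 genes. Its scaled RPKM ran from 13.3 to 16.1 in WT and from 12.6 to 14.6 in AMPK KO libraries. The log2 fold change over the mean of the treatments was -0.03 (95% CI -0.18 to 0.11).

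The other genes of the complex and its upstream kinases were set as a list of 7, of which 6 had a row and were tested: STRADA, STRADB, CAB39L, CAMKK1, MAP3K7 and TAB1. None passed in any of the 4 comparisons of the lines with limma, and the median log2 fold change over the mean of the treatments was 0.06, against 0.00 for all genes. CAB39L, the paralogue of CAB39, had an unadjusted p under 0.05 in limma over the mean. Its scaled RPKM in DMSO+EGF was 1.07 and 1.34 in WT and 2.19 and 2.17 in AMPK KO libraries (log2 fold change 0.66, SE 0.183, adjusted p = 0.089), and in cordycepin+EGF it was 1.57 and 1.51 against 1.47 and 1.20. STRADB, which encodes a pseudokinase partner of LKB1, had the next smallest p of the list, with 4.36 and 3.67 in WT and 5.57 and 7.45 in AMPK KO cordycepin+EGF libraries (log2 fold change 0.63, SE 0.252, adjusted p = 0.336).

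Of 24 genes for AMPK substrates, all were tested, and over the mean of the treatments 1 was higher and 1 lower (2 of 24, background 4.34%), with a median log2 fold change of -0.01. MFF, the mitochondrial fission factor that AMPK phosphorylates, had a scaled RPKM of 10.7 to 12.9 in WT and of 13.3 to 19.0 in AMPK KO libraries. It rose by 0.46 (SE 0.069, adjusted p = 0.00905, higher in 6 of 6). SREBF1, which encodes a transcription factor for fatty acid synthesis genes, fell by 0.41 on the log2 scale over the mean (SE 0.073, adjusted p = 0.0187, called in 18 of 23 alternatives). Its scaled RPKM was 9.83 and 8.30 in WT DMSO+EGF against 5.23 and 5.14 in AMPK KO DMSO+EGF, where the log2 fold change was -0.74 (adjusted p = 0.034), and 6.50 and 6.41 against 5.38 and 6.20 in DMSO. No substrate gene passed in DMSO or in cordycepin+EGF with limma, and SREBF1 alone passed in DMSO+EGF (1 of 24, background 1.74%). With an unadjusted p under 0.05 in limma there were 8 of 24 over the mean (background 20.4%) and 7 in DMSO (background 21.3%). In DMSO+EGF there were 8 (background 22.5%) and in cordycepin+EGF 4 (background 13.7%).

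The effect of EGF was asked within each line. No gene of the 9 passed in WT (background 0.0227%) or in AMPK KO cells (background 0.0136%), and with an unadjusted p under 0.05 in limma there was 1 of 9 in WT (background 9.72%) and 0 of 9 in AMPK KO (background 2.42%). The 1 gene was STK11, both of whose EGF libraries were above both DMSO libraries in WT (log2 fold change 0.47, SE 0.169, adjusted p = 0.496). In AMPK KO cells both EGF libraries were below both DMSO libraries (log2 fold change -0.27, SE 0.169, adjusted p = 1). The difference of these effects, AMPK KO minus WT, was -0.74 (SE 0.24, unadjusted p = 0.013 and adjusted p = 0.57 in limma), and 0 of 9 genes passed that test, as did 0% of all genes (unadjusted p under 0.05: 1 of 9 genes, background 8.69%). The share of all genes whose EGF and DMSO libraries were separate was not counted. The EGF and cordycepin contrasts share the DMSO+EGF libraries, and the EGF and line contrasts the DMSO libraries.

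Cordycepin+EGF was compared with DMSO+EGF within each line. In WT no gene of the 9 passed (background 0.00453%), and 2 of 9 had an unadjusted p under 0.05 in limma (background 16%): PRKAA1, at -0.63 on the log2 scale (SE 0.167, adjusted p = 0.262), and PRKAA2, at -0.53 (SE 0.202, adjusted p = 0.283). Both cordycepin+EGF libraries lay below both DMSO+EGF libraries for each gene, but the share of all genes separated in this way was not counted. In AMPK KO cells the same fold changes were 0.00 and -0.06 (95% CI -0.38 to 0.38 and -0.51 to 0.40). There, no gene of the 9 passed (background 0.471%, with 0.385% higher and 0.0861% lower), and CAB39 alone had an unadjusted p under 0.05 in limma (background 21.8%), at -0.69 on the log2 scale (SE 0.22, adjusted p = 0.129). The difference of the cordycepin effects, AMPK KO minus WT, was 0.63 for PRKAA1 (SE 0.237, unadjusted p = 0.0263, adjusted p = 0.182 in limma) and -0.70 for PRKAB1 (SE 0.279, unadjusted p = 0.0329, adjusted p = 0.198). No gene of the 9, and 0% of all genes, passed this test, and 2 of 9 had an unadjusted p under 0.05 (background 21.4%).

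STK11 and PRKAB1 lay on opposite sides of the WT libraries in DMSO and in cordycepin+EGF, so the difference between these line effects was tested, a contrast chosen after the values had been seen. The line effect in cordycepin+EGF minus that in DMSO was -1.12 for STK11 (SE 0.24, unadjusted p = 0.00115 in limma, adjusted p = 0.121), -0.77 for PRKAB1 (SE 0.279, adjusted p = 0.168) and 0.77 for PRKAA1 (SE 0.237, adjusted p = 0.139). None of the 9 genes passed, as 0% of all genes did, and 3 of 9 had an unadjusted p under 0.05 in limma (background 22.2%). Without WT DMSO replicate 3, which left 1 library in that group, the difference was -1.32 for STK11, -1.12 for PRKAB1, 1.02 for PRKAA1 and 0.90 for PRKAA2. Values without replicate 2 instead are not given here.

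In order of level, the groups of PRKAA1 ran from WT DMSO (18.7 ± 4.69, SD, n = 2) and WT DMSO+EGF (17.8 ± 0.909, SD, n = 2), which overlapped, through WT cordycepin+EGF (11.4 ± 0.288, SD, n = 2) to the AMPK KO groups (7.97, 7.94 and 7.39), which overlapped. CAB39 ran from AMPK KO DMSO+EGF (22.4 ± 1.86, SD, n = 2) and AMPK KO DMSO (22.0 ± 3.33, SD, n = 2), which overlapped, to a second set of 4 overlapping groups, WT DMSO (15.1), AMPK KO cordycepin+EGF (13.7), WT DMSO+EGF (13.3) and WT cordycepin+EGF (12.6). For PRKAB2 and PRKAG1 each group overlapped the next one in the order.

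Across the 12 libraries the genes fell along common lines, described here by Pearson's r of the log2 levels, with no test, since the libraries share their line, treatment and depth. PRKAA1 and PRKAA2 had r = 0.933, PRKAA2 and PRKAG2 0.882, and PRKAB2 and PRKAG2 0.843, while PRKAB1 ran against PRKAG2 (-0.855) and PRKAA2 (-0.789). The shallow library WT DMSO replicate 3 followed the same pattern within its group, with PRKAA1, PRKAA2, PRKAB2 and PRKAG2 below, and PRKAB1, PRKAG1 and STK11 above, WT DMSO replicate 2. Among 18783 genes whose mean RPKM reached 1, those most like PRKAA1 were SNX25 (r = 0.984), ZNF252P (0.977) and STOX2 (0.973), and those most like PRKAA2 were CCND2 (0.98), PGM2L1 (0.979) and MORC2 (0.976). CCND2, which encodes cyclin D2, had a scaled RPKM of 49.5 in WT DMSO and 27.4 in AMPK KO DMSO. For the others the nearest gene was RNF220 for PRKAB1 (0.979), SH3GL2 for PRKAB2 (0.958), IL20RB for PRKAG1 (0.931), HUNK for PRKAG2 (0.982), MAP2K2 for STK11 (0.976), SEH1L for CAB39 (0.983) and ARF5 for CAMKK2 (0.947).

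The genes next to each of the 9 were examined to see whether a difference was shared by its neighbourhood. Within 250 kb of PRKAA1, 7 genes were tested, among them a small nucleolar RNA gene in an intron of PRKAA1. None passed over the mean of the treatments, and their median log2 fold change was 0.13 (-0.26 to 0.29), against -0.96 for PRKAA1. Within the same distance of PRKAA2, 3 genes were tested and ranged from -0.27 to 0.17. All 5 tested genes near CAB39 had positive log2 fold changes, as did 11096 of all 22067 genes, and the median of the 5 was 0.24. Of the 5, BANF1P3 lies in an intron of CAB39 on the opposite strand. Passing were 2 of the 5 (background 4.34%), ITM2C and PSMD1. ITM2C encodes a transmembrane protein of the BRI family (log2 fold change 0.42, SE 0.067, limma, adjusted p = 0.0114, called in 22 of 23 alternatives). PSMD1 encodes a proteasome subunit (0.29, SE 0.058, adjusted p = 0.0303, called in 11 of 23). Of 32 genes near STK11, 1 passed, the long non-coding RNA ENSG00000267317 (0.54, SE 0.114, adjusted p = 0.0342), and the median was -0.03. None passed near PRKAB1 (2 tested), PRKAB2 (9), PRKAG1 (18), PRKAG2 (6) or CAMKK2 (6).

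**Figure D4:**
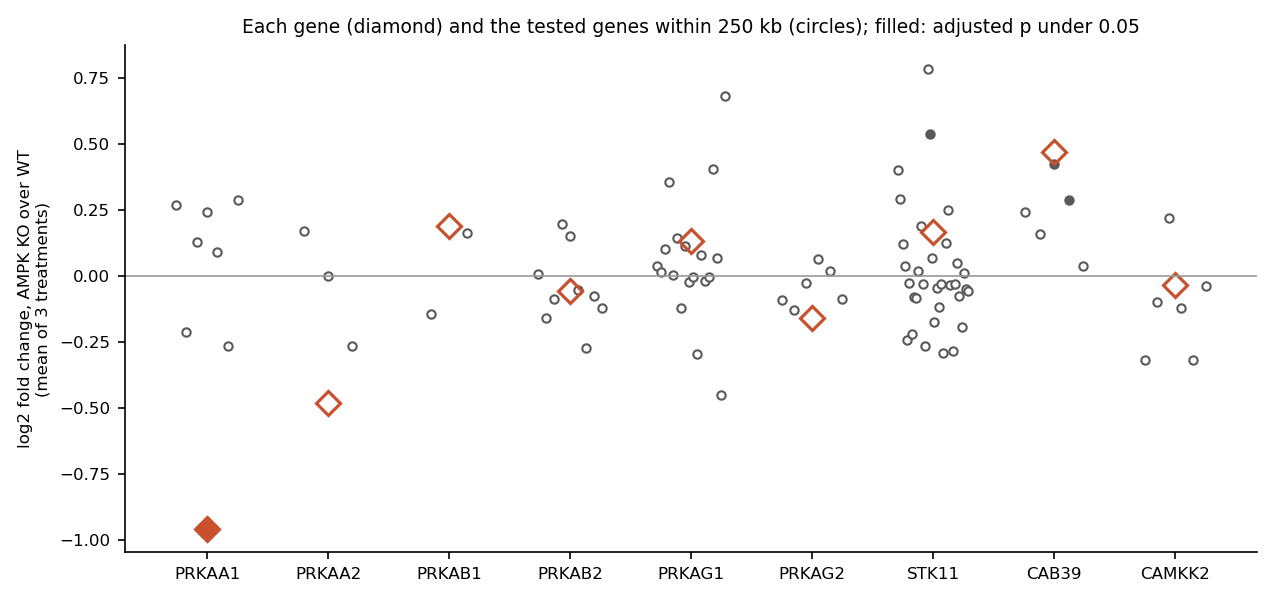
Log2 fold change of AMPK KO over WT (mean of the 3 treatments) of each of the 9 genes (diamonds) and of the tested genes within 250 kb of it (circles); filled symbols have an adjusted p under 0.05 (limma). PRKAA1 (-0.96) lies below all of its neighbours, whereas the 5 neighbours of CAB39 are all above 0, as are 11096 of the 22067 genes tested.

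Promoter windows of 300 bases (250 before and 50 after the start) were taken from RefSeq (GRCh38.p14) for all 9 genes, 14 windows in all. In the first window of each gene the GC content was 61.7% to 82.7%, against a median of 58.7% over 35116 promoters. The GC box letters GGGCGG, counted on both strands, were present in 8 of 9 genes (all but PRKAB1), against 45.0% of all promoters. That share was not matched for GC content, so the count does not show a motif beyond composition. Neither the E-box CACGTG nor the cyclic AMP response element TGACGTCA was present in any of the 14 windows (7.26% and 1.85% of all promoters). The stretches before the transcripts of PRKAA2 and CAB39, the catalytic gene and the upstream gene with the next largest differences over the mean, are shown for their composition, 100 bases each outside annotated exons and in the sense of the gene, with GC box letters in capitals (chr1:56645118-56645217 and chr2:230712742-230712841, both plus strand).
PRKAA2: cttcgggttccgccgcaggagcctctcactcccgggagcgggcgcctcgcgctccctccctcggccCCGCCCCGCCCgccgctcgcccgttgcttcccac
CAB39: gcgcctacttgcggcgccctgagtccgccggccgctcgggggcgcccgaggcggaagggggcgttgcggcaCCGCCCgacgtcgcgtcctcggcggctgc
The PRKAA2 stretch holds 2 such sites and the CAB39 stretch 1, read on the opposite strand as CCGCCC. Binding to these letters was not measured.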

How the data were processed

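RNA of 12 HEK293 libraries (6 groups, replicates 2 and 3, grouped by the sample labels) was sequenced by the authors as stranded, ribosomal RNA-depleted paired reads, mapped to GRCh38.p13 and counted with Rsubread. The submitters' processing notes also name FastQC and hg38. The strand setting and annotation release were not given in the sources used here. The authors discarded replicate 1 of every condition as an outlier, which was not analysed here. The deposited unit was RPKM, for 26058 genes; 2 further rows named no gene (an empty row and the upper quartile of each column). Symbols and positions came from GENCODE release 44, matched by identifier for 26029 genes.

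The 9 genes, the gene lists and the tests were chosen with earlier results of these data known. RPKM values were multiplied by the mean upper quartile over the library's own, and log2(value + 0.5) was fitted for the 22067 genes whose mean RPKM reached 0.5, so fold changes understate the change of low genes. Main tests used limma 3.58.1 in R 4.3.3 (6 group means over all 12 libraries, 6 residual degrees of freedom, empirical Bayes with trend, Benjamini-Hochberg adjustment over all genes, 10 comparisons, two-sided). The labels do not say whether replicates were separate cultures, so p-values measure the spread between these libraries. Reads could be recovered because the RPKM of a gene moves in steps of 1 read: 25863 genes (99.3%) gave whole reads in every library within 0.05 of a read. The denominators differed from the read totals by a factor per library, so the deposited RPKM may already carry a scaling.

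Named were all 9 genes, the genes of the lists with an adjusted p under 0.05 between the lines (or the 2 with the smallest p where none passed), the 3 genes most like PRKAA1 and PRKAA2 and the one most like each other gene, and neighbours that passed. Same-numbered WT libraries deviated together (r = 0.136 to 0.314 over genes for 3 pairs), and AMPK KO libraries did not (r = -0.122 to 0.0307). Across the lines r ran from -0.0809 to 0.322, over 0.1 in 3 of 9 pairs. Replicate 2 was the deeper library in each WT group, so pairing and depth cannot be told apart there. The block changed no call of the 9 genes within WT. Over all genes, a block in each line moved the number called from 5 to 3 for EGF in WT. For cordycepin in WT that block moved it from 1 to 5. For each comparison 12 alternatives and the omission of each of the 12 libraries were tried. The fit was run on simulated reads with the real depths, a fixed spread between libraries and known changes between the lines. The simulation had no treatment effect and no deviation shared by libraries. It does not show how the fit behaves with the spread of these libraries.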

Additional observations from a re-analysis of the deposited data

How the results depend on the processing

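PRKAA1 over the mean of the 3 treatments was called under all 23 alternatives that could differ from the fit given (log2 fold change -1.04 to -0.87, adjusted p 1.49e-05 to 0.0143). The number of the 9 genes called there was 1, and became 2 with the replicate block (CAB39 added, 0.47, adjusted p = 0.0427, all genes 4.14%; across the lines the numbers are not shown to pair libraries), 2 with array weights (PRKAA2; all genes 4.16%), 3 with voom on recovered reads (PRKAA2 and CAB39; all genes 10.4%), and 1 to 3 when a library was left out (3 without WT DMSO replicate 3, all genes 13.1%, and 2 without AMPK KO cordycepin+EGF replicate 3, all genes 3.83%). In DMSO the count of 1 became 0 with only the groups compared (all genes 0.00453%), 0 with a replicate block in each line (0.285%), 0 with array weights (0.0317%) and 3 with voom (7.88%), and 0 to 4 with a library left out: 4 without WT DMSO replicate 3 (all genes 13.9%), and 0 without either library of AMPK KO DMSO, AMPK KO DMSO+EGF or WT DMSO+EGF. In DMSO+EGF it became 2 with only the groups compared (all genes 10%), 4 with array weights (22.8%), 3 with voom (11.1%), and 0 to 2 with a library left out, 2 without WT DMSO replicate 2 or 3 (10.7% each) and 0 without any of the 6 libraries of WT DMSO+EGF, AMPK KO DMSO+EGF and AMPK KO DMSO. Counts of 0 became 1 with voom for cordycepin in WT (PRKAA1; all genes 4.01%) and in AMPK KO (CAB39; 5.96%), and 0 to 1 with a library left out for the difference of the cordycepin effects (PRKAB1, -0.70, without WT DMSO replicate 2 or replicate 3, all genes 9.06% and 9.09%). In DMSO, voom called PRKAA1, PRKAA2 and STK11. In DMSO+EGF it called PRKAA1, PRKAA2 and CAB39, and array weights called these and PRKAB1 (0.40, adjusted p = 0.0309). A left-out library leaves a group of 1, which is then assumed to vary like the other groups. The block changed no other call of the 9 genes.

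Among the values between the lines, and those of other comparisons with an unadjusted p under 0.05, signs changed in 14 of 1023 refits, none of them called: PRKAG1 in cordycepin+EGF with voom (-0.013), and otherwise values with a library left out. Over left-out libraries, PRKAB2 ran from -0.20 to 0.086 over the mean and from -0.51 to 0.35 in DMSO, and CAMKK2 from -0.073 to 0.00437 over the mean and from -0.20 to 0.028 in DMSO+EGF. In DMSO, PRKAG1 ran from -0.17 to 0.37 and PRKAG2 from -0.51 to 0.046. In cordycepin+EGF, PRKAA2 ran from -0.33 to 0.085, PRKAG1 from -0.27 to 0.40, PRKAG2 from -0.14 to 0.25 and CAB39 from -0.090 to 0.35. The sign turned without WT DMSO replicate 2 or AMPK KO DMSO replicate 3 (PRKAB2), without WT DMSO replicate 2 (PRKAG1 and PRKAG2 in DMSO), without WT DMSO+EGF replicate 3 (CAMKK2), and in cordycepin+EGF without AMPK KO replicate 2 (PRKAA2 and PRKAG1), AMPK KO replicate 3 (PRKAG2), WT replicate 3 (PRKAG1) or WT replicate 2 (CAB39). The causes were not tested. Of the remaining gene and comparison pairs (among them PRKAA1 and PRKAA2 under cordycepin in AMPK KO cells, both near 0), 45 of 1128 refits changed sign and none was called. Outside the 9, MFF was called in 23 of 23 alternatives, ITM2C in 22, SREBF1 in 18, ENSG00000267317 in 14 and PSMD1 in 11 over the mean, and SREBF1 in DMSO+EGF in 15 of 24. Over all genes the number called was 957 over the mean (305 without AMPK KO DMSO+EGF replicate 3 to 2890 without WT DMSO replicate 3), 97 in DMSO (1 with only the groups compared to 3065 without WT DMSO replicate 3), 383 in DMSO+EGF (6 without AMPK KO DMSO+EGF replicate 3 to 5041 with array weights) and 26 in cordycepin+EGF (2 with only the groups compared to 337 with voom). For EGF in WT it was 5 (1 with only the groups compared to 702 without WT DMSO replicate 2) and in AMPK KO 3 (1 to 4). For cordycepin it was 1 in WT (0 to 878 with voom) and 104 in AMPK KO (0 to 1360 without WT DMSO replicate 2), and for the differences of the EGF and cordycepin effects 0 (up to 13 without WT DMSO replicate 2, and up to 2058 with voom).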
